A study of Mus musculus with 4 samples.

Results

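The cytosolic ribosomal proteins are the protein subunits of the ribosomes that translate nuclear-encoded mRNA. Their genes were taken from the array by symbol: Rpl or Rps followed by a number, with an optional letter, plus Rplp1 and Arbp, the older symbol of Rplp0. Kinases of ribosomal protein S6 and mitochondrial ribosomal proteins were left out. This gave 65 genes with 160 probes, of 15694 gene symbols and 33012 probes in all, 39 genes of the large (60S) and 26 of the small (40S) subunit.

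RNA was taken from 4 cultured mouse melanoma lines of C57Bl6 background, all grown in DMEM with 20% serum for up to 10 passages, and hybridised to Applied Biosystems Mouse Genome Survey arrays read by chemiluminescence. B16 was the parental line (B16F1). B16-RI was grown out of a lymph node metastasis after B16 was injected into the skin. B16-RI was then injected in turn, and B16-RII was grown from a lymph node metastasis and B16-RIIL from a lung metastasis of that second round. B16-RI was therefore the line from which both round 2 lines were made, and each line is 1 derivation, with RNA pooled from cultures of 2 passage numbers per the series description. The labels give 1 sample per line. The study's methods describe duplicate cultures, and the table holds second arrays that match no labelled sample and were not used here, so whether they are those duplicates is not known. With 1 array per line analysed, no difference below has a replicate check, a standard error or a p-value, and each compares libraries rather than conditions.

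The arrays had 13872 to 14855 probes detected, meaning a signal-to-noise ratio of at least 3 and a quality flag of at most 5000. Of 6 melanocyte markers all 6 were detected on every array, while 0 or 1 of 6 macrophage, 0 of 3 endothelial, 1 or 2 of 5 lymphocyte and 1 to 3 of 6 fibroblast markers were detected. Values are scaled signals: the deposited normalized signal, with each passaged array brought to the median of B16 separately in each of the 2 probe sets that the authors had scaled by different constants. Differences are log2 of the scaled signal in one line minus log2 in another, and the signals of different probes cannot be set against each other. In a bulk culture, fewer cells of a type and less RNA per cell cannot be told apart.

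Every cytosolic ribosome carries 1 copy of nearly every one of these proteins, and a growing cell makes their mRNAs in large and balanced amounts. Most of the mRNAs begin with a C and a run of pyrimidines, the 5′ terminal oligopyrimidine tract, through which mTOR signalling sets how much of them is translated. An array reads mRNA level and not translation. Ribosomal protein genes also have many processed pseudogenes and near-identical copies, so which copy a probe reads cannot be told from these files.

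Sequences around the annotated start were available from RefSeq (GRCm38.p6) for 47 of the 65 genes. A pyrimidine start, here a C followed by at least 4 more C or T beginning within 5 bases of an annotated start, was found in 22 of the 47 genes (46.8%), counting any annotated start of a gene, against 21.2% of all 27025 genes with a sequence and 21.5% of the protein-coding ones. The letters CCGGAAG, the core bound by ETS factors, were found on either strand of the 300-base promoters of 17 genes (36.2%, against 9.93% of all genes), and AAGATGGC, the core of the YY1 motif, in 5 (10.6% against 3.19%). Both motifs were chosen with results of these data known, can share letters where the end of the first meets the start of the second, and a match is not a binding site. The windows below show 15 bases before and 15 after the start for members described further on, at the first start listed for each gene. Capitals mark the run from its first C inside that 5-base limit, so pyrimidines further upstream stay in lower case (as in Rpl7a), and windows without capitals hold no such run at the annotated start:

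Rps2 (chr17:24720048-24720077, + strand): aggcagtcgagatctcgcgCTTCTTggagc
Rps18 (chr17:33955651-33955680, - strand): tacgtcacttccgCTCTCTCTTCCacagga
Rps24 (chr14:24490663-24490692, + strand): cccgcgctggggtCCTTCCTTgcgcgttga
Rps6 (chr4:86857353-86857382, - strand): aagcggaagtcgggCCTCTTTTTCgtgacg
Rpl12 (chr2:32961697-32961726, + strand): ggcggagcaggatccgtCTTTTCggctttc
Rpl15 (chr14:18270972-18271001, - strand): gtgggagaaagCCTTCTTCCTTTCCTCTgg
Rpl7a (chr2:26910792-26910821, + strand): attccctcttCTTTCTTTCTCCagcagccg
Rpl13a (chr7:45128731-45128760, - strand): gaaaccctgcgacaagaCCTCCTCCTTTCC
Rpl10 (chrX:74270801-74270830, + strand): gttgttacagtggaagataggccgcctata
Rpl22 (chr4:152325711-152325740, + strand): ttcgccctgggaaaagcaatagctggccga
Rpl13 (chr8:123102335-123102364, + strand): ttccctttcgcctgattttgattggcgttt
Rplp0 (chr5:115559452-115559481, + strand): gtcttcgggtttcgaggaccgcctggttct

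Most of the probes were bright on all 4 arrays. Of the 160 probes, 143 were detected in B16, 146 in B16-RI, 149 in B16-RII and 145 in B16-RIIL. Probes detected on all 4 arrays numbered 139 and covered 60 genes, and 8 probes were detected on none. The probes were divided into bright and dim at a mean scaled signal of 16, a limit chosen after seeing the data. At least that bright were 125 probes, and all 125 were detected on every array, while of 35 dimmer ones 14 were. Among the dim probes, 30 belonged to 28 genes that also had a bright probe. The other 5 were the sole probes of Rps3, Rpl37, Rps21, Rps27a and Rpl3l. Rps3, Rpl37, Rps21 and Rps27a are standard parts of the ribosome, and Rpl3l is the muscle-enriched paralog of Rpl3. The Rps3, Rpl37 and Rpl3l probes were detected on no array, the Rps27a probe only in B16-RII, and the Rps21 probe in the 3 passaged lines only, at scaled signals of 3.60, 3.52 and 3.44 against 2.22 in B16.

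B16-RI was slightly above B16. The median difference over the 142 probes detected in both was 0.103, with quartiles of 0.050 and 0.173, and 119 probes were higher and 23 lower, where 49.7% of all probes were higher in B16-RI. With the brightest probe of each gene, 52 of 60 genes were higher. Other bright probes were also higher. Among probes with a mean scaled signal of at least 256, a limit chosen after seeing the data, the 106 ribosomal protein probes had a median of 0.101, with 88.7% higher, and the 596 other probes 0.086, with 69.6% higher. With quantile normalization 51.9% of these 106 probes were higher, at a median of 0.026, and 49.5% of the 596.

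B16-RII and B16-RIIL were slightly below B16. In B16-RII the median over 142 probes was -0.047, with 54 higher and 88 lower (48.0% of all probes were higher). In B16-RIIL it was -0.089 over 140 probes, with 52 higher and 88 lower (49.2% of all probes were higher). Both signs turned with the scaling: with the deposited normalized signal left as it is, the medians were 0.367 and 0.230, where those of all probes were 0.396 and 0.214. The direction against B16 is therefore not settled for these 2 lines, while in B16-RI it was positive under all 6 scalings tried, though only 0.023 with centring on the brightest probes and 0.050 with quantile normalization.

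**Figure D1:**
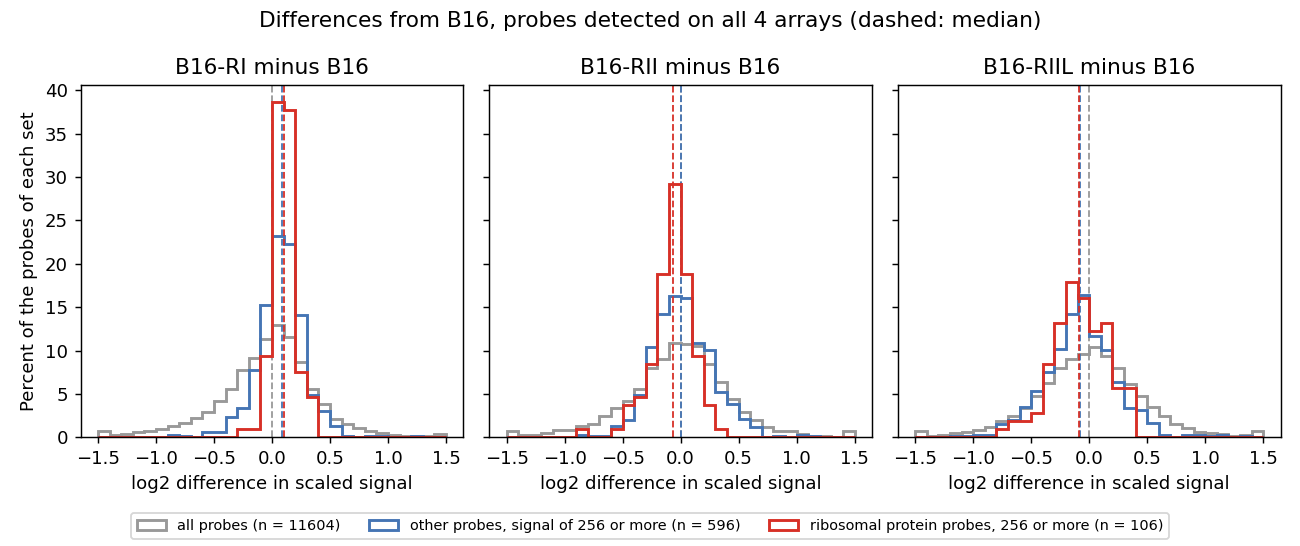
Percent of probes (vertical axis) by log2 difference in scaled signal from B16 (horizontal axis, values beyond 1.5 in the end bins) in the 3 passaged lines, 1 array each, for all 11604 probes detected on all 4 arrays (grey), the 596 other probes of signal 256 or more (blue) and the 106 ribosomal protein probes of that brightness (red). Dashed lines are medians: in B16-RI red and blue lie together at 0.101 and 0.086, and in B16-RII red lies at -0.061 and blue at 0.004; the medians in B16-RII and B16-RIIL change sign with the scaling.

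Against B16-RI, the line they were derived from, both round 2 lines were lower on this scaling, although for B16-RII the median was only -0.045 with the deposited signal and turned to 0.063 with median scaling of the raw signal. Under those 2 scalings the median of all probes was higher too, at 0.185 and 0.239. The member median less that of all probes was then -0.230 and -0.177, against -0.176 on the scaling used throughout. In B16-RII 125 of 145 probes were lower than in B16-RI, where 48.3% of all probes were lower, and the median difference was -0.164. By brightest probe, 55 of 61 genes were lower. The 60S genes had a median of -0.150 and the 40S genes -0.195. In B16-RIIL 111 of 142 probes were lower than in B16-RI (48.8% of all probes), with a median of -0.193. By brightest probe, 51 of 61 genes were lower. The size of this B16-RIIL median also depended on the scaling. It shrank to -0.085 when raw signals were median scaled, and to -0.053 after the arrays were quantile normalized. Less the median of all probes, these values were -0.188 and -0.053, against -0.204 on the scaling used throughout.

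Other probes above the same signal limit, which were not matched to the members in brightness, were also lower, by less in B16-RII, and how far depended on whether they carry a gene symbol. At a signal of at least 256, B16-RII minus B16-RI was -0.158 for the ribosomal protein probes (97 of 106 lower) and -0.059 for the 596 others (64.1% lower). B16-RIIL minus B16-RI was -0.190 against -0.163, and of the others the 318 probes with a gene symbol had -0.090 and the 278 without one -0.240. With quantile normalization B16-RIIL minus B16-RI was -0.007 for the ribosomal protein probes and -0.01 for the 596 others. The gap between members and other bright probes in B16-RII minus B16-RI, -0.099, was -0.071 with quantile normalization and -0.140 with the deposited signal, the extremes of the 6 scalings. Of these, 5 apply constant factors per array or probe set, which move both groups in much the same way, so its sign under them is little evidence of stability. It was present in both probe sets, at -0.169 against -0.063 and -0.153 against -0.051. Of the other bright probes, those with a gene symbol had a median of -0.011 in B16-RII minus B16-RI, and those without one -0.126. Whether the unnamed probes read copies of ribosomal protein genes was not tested, so the pooled values of the other probes may hold some of the members' own signal.

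**Figure D2:**
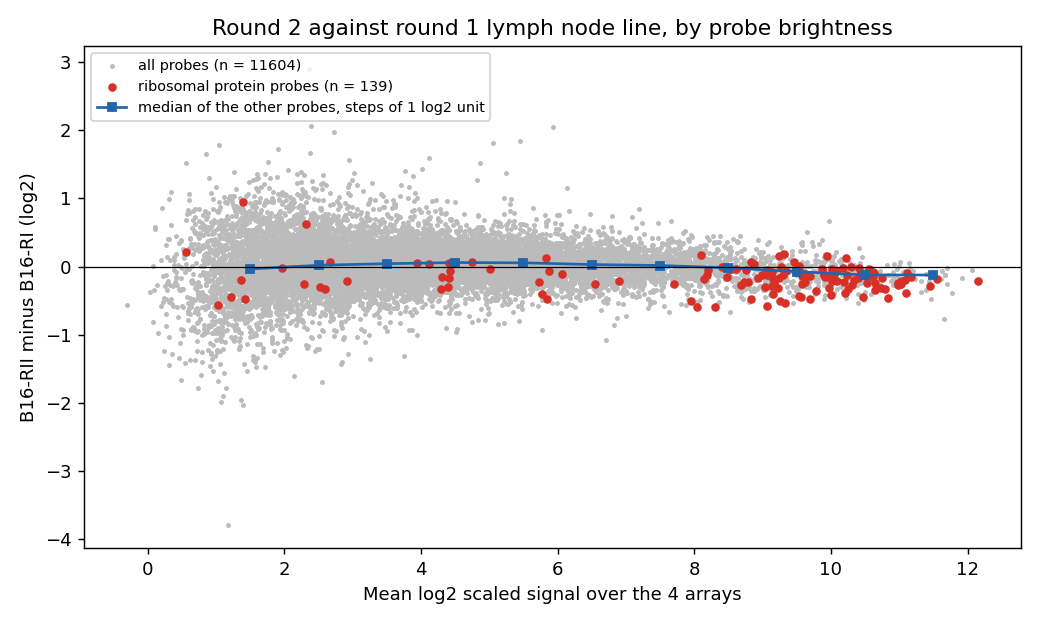
B16-RII minus B16-RI (log2, vertical axis) against mean log2 scaled signal over the 4 arrays (horizontal axis), 1 point per probe detected on all 4 arrays, with the median of the other probes in steps of 1 log2 unit (blue). Most ribosomal protein probes (red) sit at the bright end and below 0, 97 of 106 at a signal of 256 or more, where the other probes also lie lower, at a median of -0.059; with median scaling of the raw signal both lie above 0.

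The order of the 4 arrays within each probe depends on the scaling too, and is given here for the scaling used throughout. With median scaling of the raw signal, 65.1% of the ribosomal protein probes of signal 256 or more were higher in B16-RII than in B16-RI, against 80.4% of the other probes of that signal. Of the 139 probes detected throughout, 86 were highest in B16-RI and 2 were lowest there, while 22.9% of all probes were highest in B16-RI. B16-RIIL was lowest for 58 probes, where 27.9% of all probes were lowest in B16-RIIL, and B16-RII for 46. At a signal of at least 256, 67.9% of the ribosomal protein probes were highest in B16-RI, against 33.3% of other probes with a gene symbol and 55.0% of those without one. The share highest in B16-RII was 3.77%, against 25.8% of other probes with a gene symbol and 14.4% of those without one. The share lowest in B16-RIIL was 41.5%, between the 38.4% of the named and the 57.9% of the unnamed probes. The share lowest in B16-RII was 34.9%, against 14.8% and 18.0%.

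No bright ribosomal protein probe differed 2-fold from B16 in any line. That is near the background of bright probes: of the 2901 brightest of all probes, 0.172% to 1.07% were 2-fold above or below in a line. Of all member probes, dim ones included, 2 of 147 detected in either line were 2-fold above and 0 below in B16-RI, against 7.71% and 11.7% of all probes. In B16-RII 3 of 150 were above and 1 below, against 6.75% and 11.3%. In B16-RIIL 3 of 148 were above and 1 below, against 8.43% and 9.99%. All 10 were dim probes whose signals reached at most 3.49, and 9 of the 10 lacked detection on the dimmer array, so that only a bound can be given. The lower of these bounds was at least 2.13-fold above for a dim Rpl11 probe in B16-RIIL, and the higher were at least 3.91-fold above for Rps15a and at least 3.89-fold below for Rpl26 in B16-RIIL. The other 6 bounds were at least 2.43-fold above for Rps6 in B16-RI, at least 3.48-, 3.24- and 2.15-fold above for Rpl21, Rps27a and Rps28 in B16-RII, at least 2.51-fold below for Rps12 in B16-RII, and at least 2.79-fold above for Rpl36a in B16-RIIL. The measured one was Rps13 in B16-RI, at 3.32 against 1.40 in B16, 2.37-fold. The bright Rps13 probe read 602 against 572 in the same lines, a difference of 0.07.

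For single genes the direction against B16 can also depend on the scaling. Of 60 genes by brightest probe, 17 were above B16 and 1 below under all 6 scalings in B16-RI, 9 above and 3 below in B16-RII, and 13 above and 15 below in B16-RIIL. These counts follow the probe sets and are no measure of stability. The deposited signals of the 2 probe sets were offset, with a median shift against B16 of 0.46 for one set and -0.008 for the other in B16-RIIL. The authors' constants on that array were close, at 491.2 and 498.3, and the offset remained after them. Another scaling can therefore move the genes of one set together and not those of the other. The values that follow are on the scaling used throughout, in the order B16, B16-RI, B16-RII and B16-RIIL where 4 are given.

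The first 60S genes described were among the highest against B16 in at least 1 line. Rpl22, an RNA-binding 60S protein, read 651 in B16, 834 in B16-RI, 759 in B16-RII and 821 in B16-RIIL. It was above B16 in all 3 lines, by 0.36, 0.22 and 0.33, although its second, dim probe was lower in all 3, by 0.40, 0.36 and 0.22. Rpl15 was above B16 on both of its probes, and the brighter read 406, 479, 493 and 508 in the same order of lines. Rpl12, part of the base on which the ribosomal stalk sits, read 1716, 2217, 1757 and 1470, a difference of 0.37 in B16-RI. Its second probe read 17.8, 27.7, 24.6 and 16.8, above B16 in B16-RI by 0.64 and in B16-RII by 0.47. Rpl4, a protein lining the exit tunnel, gave the same order at 51.1, 65.8, 56.3 and 42.1, and Rpl24 read 378, 478, 397 and 392.

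By each gene's brightest probe, the lowest large subunit member in B16-RIIL was Rpl10, a late-joining 60S protein needed for the subunit to become active. It read 69.0 in B16, 71.8 in B16-RI, 51.4 in B16-RII and 42.5 in B16-RIIL. Its difference from B16 of -0.70 in B16-RIIL was -0.62 from the median of the members of its own probe set, a value that the array constants cannot move. Rpl32 read 2577, 2544, 1937 and 1856, with differences of -0.41 and -0.47 in the round 2 lines, and its second probe gave -0.07 and -0.31. Rpl35a read 294, 327, 217 and 229. Rpl14 read 496, 516, 371 and 446 on its brighter probe, while its second probe was above B16 in all 3 lines, by 0.079, 0.14 and 0.18. Rpl7a read 517, 559, 499 and 394, and was low in B16-RIIL alone. Rpl3, a protein of the peptidyl transferase centre, read 1025, 967, 947 and 1244 and so was high in B16-RIIL only, while its second probe was within 0.12 of B16 in every line. Rpl23 stayed between 20.7 and 22.5. Rpl13a showed a larger difference on its dimmer probe, which read 429, 373, 246 and 255, than on its brighter one, which read 2945, 3129, 2576 and 2545.

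The stalk proteins, which recruit translation factors to the ribosome, did not move together. Rplp0 (Arbp on the array), often used as a reference gene, stayed between 631 and 676 on its bright probe and between 53.8 and 59.8 on the other. Both probes of Rplp1 were low in B16-RIIL: one read 1206, 1304, 1131 and 799, and the other 1496, 1538, 1422 and 1098 in B16, B16-RI, B16-RII and B16-RIIL. Their differences from B16 there were -0.59 and -0.45. Rplp2 and Rpl5 had no probe named for them among the members.

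In the small subunit, Rps24, a protein needed for 18S rRNA maturation, was the lowest against B16 in both round 2 lines by each gene's brightest probe. The bright Rps24 probe read 647 in B16, 680 in B16-RI, 455 in B16-RII and 405 in B16-RIIL, differences of -0.51 and -0.68 in the round 2 lines. Its second probe, near the dim limit, read 17.1, 25, 22.5 and 16.1, so the probes of this gene disagreed by 0.90 in B16-RII. Rps27 was high in B16-RI, at 1257 against 1000, 942 and 941 in B16, B16-RII and B16-RIIL. Rps14 was below B16 in all 3 lines on its bright probe, by 0.17, 0.29 and 0.21.

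Rps6, the subunit phosphorylated by S6 kinases downstream of mTOR, went the other way. It read 563 in B16, 589 in B16-RI, 659 in B16-RII and 611 in B16-RIIL, and was 0.28 above the median of the members of its probe set in B16-RII. Rps13 read 572, 602, 683 and 689. Rps12 read 4250, 4760, 4123 and 5142. Rps27l, a paralog of Rps27 induced by p53, read 600, 643, 517 and 646, and its second probe was 0.36 below B16 in B16-RII and 0.24 below in B16-RIIL. Rpl11, which binds Mdm2 and so links ribosome assembly to p53, read 1396, 1472, 1334 and 1281 on its bright probe.

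**Figure D3:**
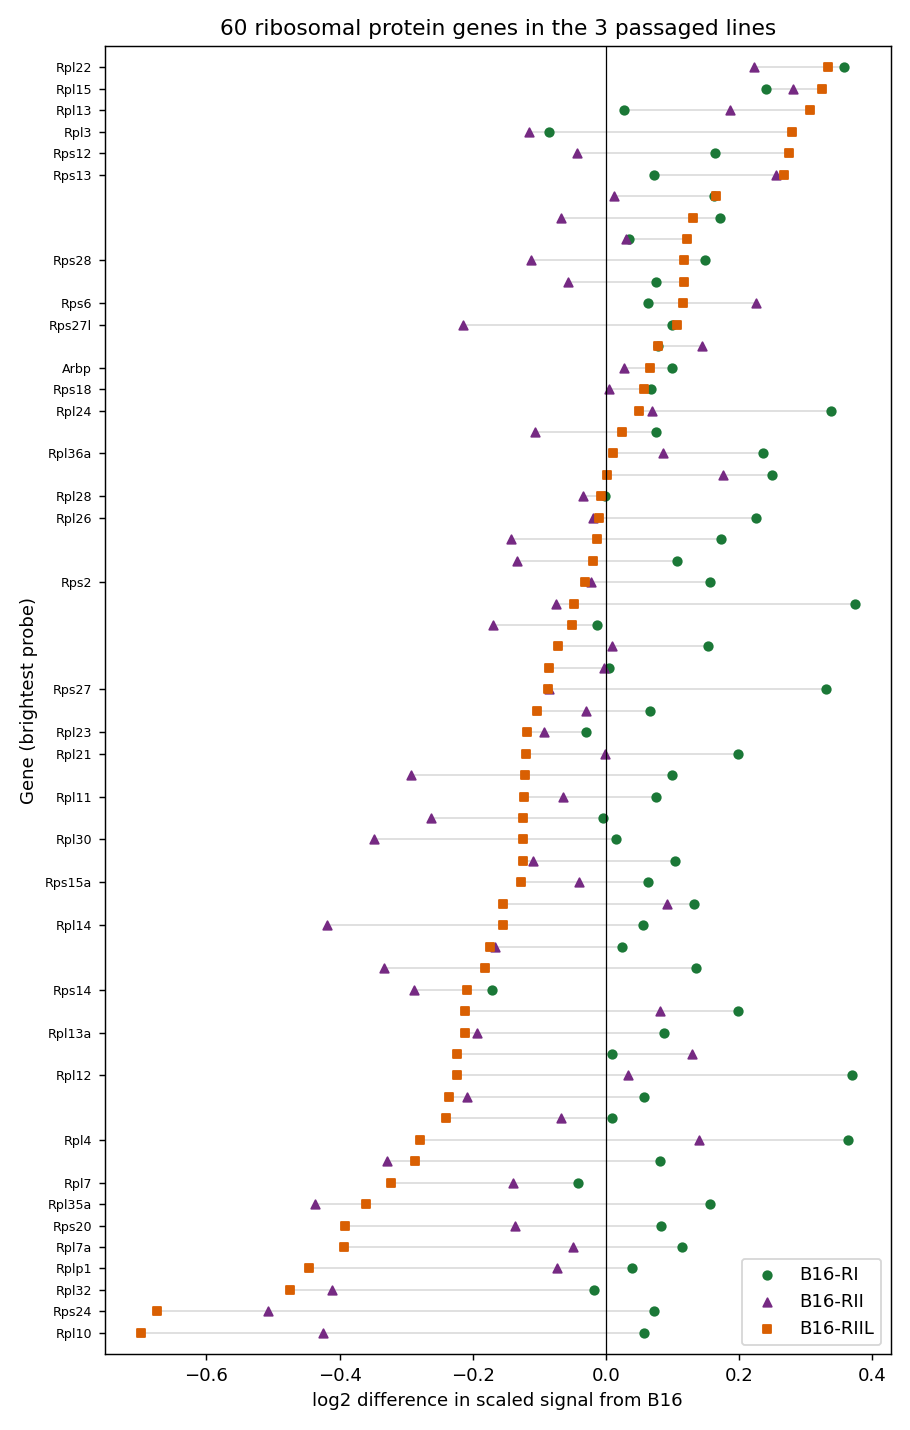
Log2 difference in scaled signal from B16 (horizontal axis) of the brightest probe of the 60 genes detected on all 4 arrays (vertical axis, ordered by B16-RIIL, with the genes described in the text labelled), with 1 array per line. Circles for B16-RI lie mostly right of 0 (52 of 60), and the squares for B16-RIIL spread from -0.70 (Rpl10) to 0.33 (Rpl22); the position of 0 in B16-RII and B16-RIIL changes with the scaling, the order of genes within a probe set does not under constant factors.

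Repeat probes of a gene give the only measure of error within the 4 arrays used, and it covers the probe and not the culture. Of 41 genes with several detected probes, all probes were higher than in B16 for 25 genes in B16-RI and lower for 1. In B16-RII they were higher for 7 and lower for 13, and in B16-RIIL higher for 8 and lower for 16. The same count was not made for other genes. Of the other probes of signal 256 or more, 69.6% were higher than in B16 in B16-RI, 50.3% in B16-RII and 38.1% in B16-RIIL. Among bright probes the SD between probes of the same gene was 0.114, 0.189 and 0.182 in B16-RI, B16-RII and B16-RIIL, against an SD over all bright member probes of 0.135, 0.2 and 0.255. Single-gene differences of about 0.2 are therefore within the scatter of probes meant for the same gene. The second SD includes the first kind of scatter and covers 125 probes, against 95 probes of 30 genes for the first.

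The probes of a gene differed by 0.5 or more in 5 genes in B16-RI, 10 in B16-RII and 10 in B16-RIIL. The largest disagreement in B16-RIIL was that of Rps14, by 1.15, between a bright probe and one that read 1.00 to 1.92. Rps15a disagreed between bright probes, one reading 1080, 1128, 1050 and 988 and the other 297, 318, 223 and 182. Rps20, Rpl28 and Rpl30 disagreed through dim probes, which read at most 7.76.

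Rps2 had 9 detected probes, at scaled signals of 1059 to 3293. In B16-RI all 9 were above B16, by 0.08 to 0.20. In B16-RII 2 were above and 7 below, and in B16-RIIL all 9 were below, by 0.031 to 0.36. The 5 detected probes of Rps18 were above B16 in every line, by 0.057 to 0.33 in B16-RIIL. The 3 probes of Rpl7 were all below B16 in B16-RII and B16-RIIL, with medians of -0.35 and -0.40. The 13 detected probes of Rpl21 divided, with 6 higher and 7 lower in B16-RIIL over a range of -0.53 to 0.24.

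All 5 probes of Rpl13 were above B16 in B16-RIIL, by 0.12 to 0.63, and Rpl13 was the only member gene on chromosome 8. The 464 chromosome 8 probes detected in both lines had a median of 0.377 in B16-RIIL, against 0.036 in B16-RI and 0.077 in B16-RII. The part of the chromosome in these values was not tested.

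**Figure D4:**
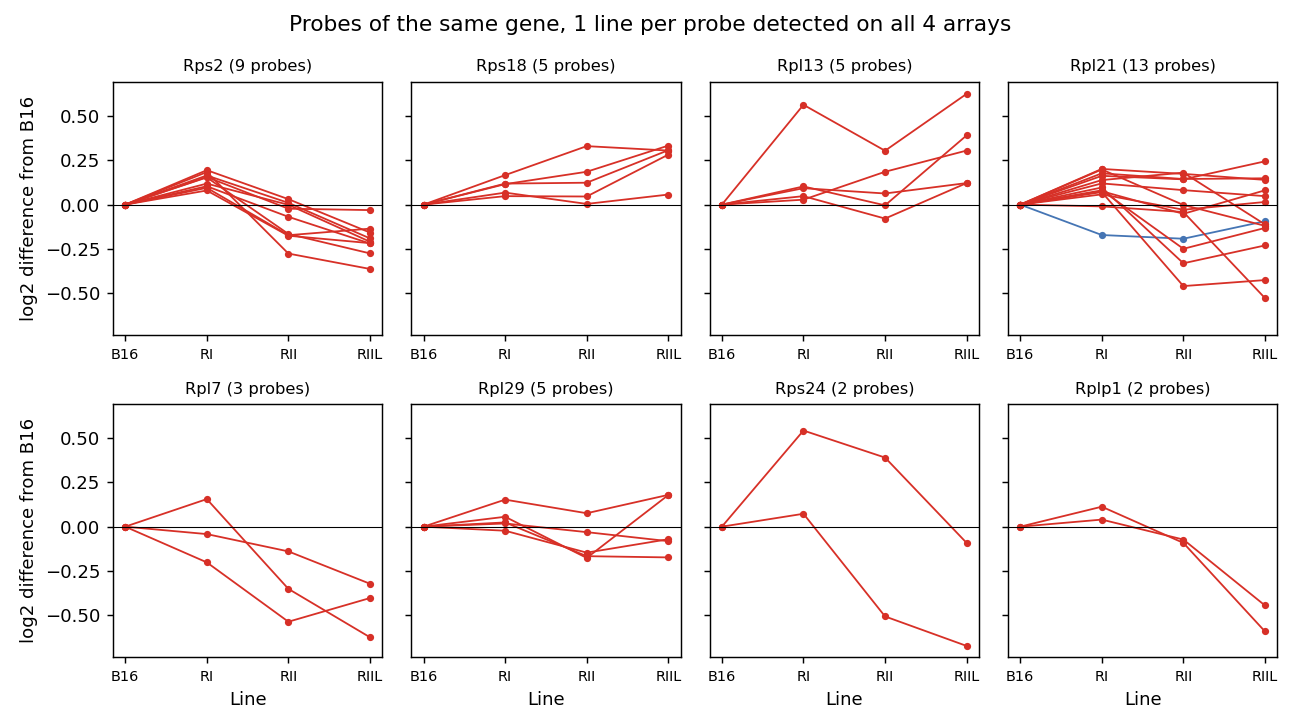
Log2 difference from B16 (vertical axis) in B16 and the 3 passaged lines (horizontal axis) for each probe detected on all 4 arrays of 8 genes, 1 line per probe, red for a mean scaled signal of at least 16 and blue for dimmer. The 9 Rps2 probes run together and end below 0, by 0.031 to 0.36, the 5 Rps18 and 5 Rpl13 probes end above 0, and the 13 Rpl21 probes spread to both sides.

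Genes were also divided by a pyrimidine start at the first start listed, a narrower count than that over any start. In B16-RI the 20 measured genes with one had a median of 0.102 and the 23 without one 0.099. In B16-RII the medians were -0.038 and -0.020, and in B16-RIIL -0.112 and 0.011.

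Other genes of protein synthesis were read beside the members from lists of the pathway, 1 probe per gene. Relative to B16-RI, the mitochondrial ribosomal proteins, which serve a separate ribosome, had a median of -0.028 in B16-RII, with 27 of 65 higher and 38 lower. Initiation factors had 0.013 (17 of 31 higher) and elongation factors 0.009 (3 of 5 higher). The cytosolic ribosomal proteins, at -0.164 with 6 of 61 higher, had the lowest median of the 6 lists plotted. In B16-RIIL minus B16-RI the members' median was -0.198, and that of the ribosome assembly and nucleolar genes was close to it, at -0.181 with 13 of 16 lower. In B16-RI minus B16 the lists with higher medians than the ribosomal proteins were the assembly and nucleolar genes at 0.278, with 15 of 16 higher, the elongation factors at 0.202 and the RNA polymerase I genes at 0.178. Nucleolin (Ncl), which helps process pre-rRNA, read 562, 671, 598 and 567 in B16, B16-RI, B16-RII and B16-RIIL. Nop58 (Nol5 on the array), a core protein of box C/D particles, read 330, 440, 414 and 385. Its partner Nop56 (Nol5a) was 2-fold above B16 in B16-RI and B16-RII, at a dim 4.05, 9.41, 9.51 and 6.62.

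**Figure D5:**
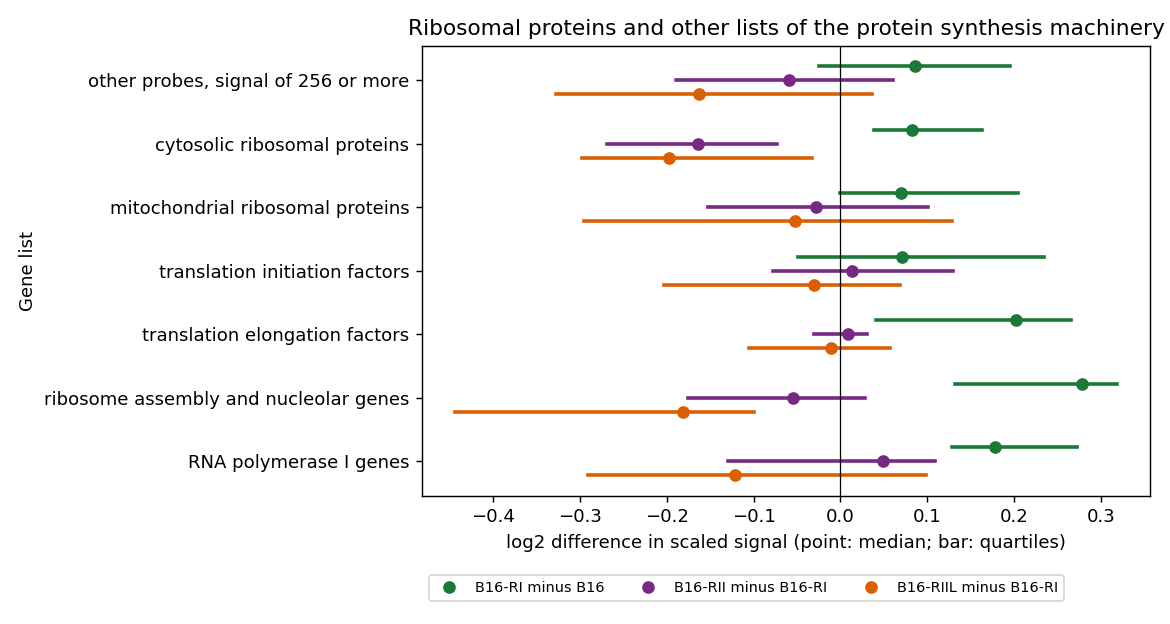
Median (point) and quartiles (bar) of the log2 difference in scaled signal (horizontal axis) for other bright probes and for 6 gene lists (vertical axis, 1 probe per gene), in B16-RI minus B16, B16-RII minus B16-RI and B16-RIIL minus B16-RI, 1 array per line. The cytosolic ribosomal proteins have the lowest median in B16-RII minus B16-RI (-0.164 on this scaling), while in B16-RI minus B16 the assembly and nucleolar genes have the highest (0.278). With median scaling of the raw signal the median over all member probes in B16-RII minus B16-RI was 0.063, where that of all probes was 0.239.

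Of genes outside the symbol rule that also encode 40S or 60S proteins, Fau, the precursor of ribosomal protein S30, differed most among probes detected in both lines compared. One Fau probe read 147 in B16, 151 in B16-RI, 71.4 in B16-RII and 74.7 in B16-RIIL, a difference of -1.04 in B16-RII and -0.98 in B16-RIIL. The other Fau probe read 85.7, 84.9, 78.8 and 81.7, with differences of -0.12 and -0.069, so only 1 of its 2 probes showed a difference of that size. Rpl36al read 495, 576, 504 and 565 on its bright probe, and its other probe was detected only in B16, at 0.81.

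Among growth signalling genes that act on ribosomes, Akt1s1, the mTOR complex 1 subunit PRAS40, read 10.5 in B16 and 66.3, 65.9 and 54.8 in the passaged lines, on its 1 probe. Ddit4, an mTOR inhibitor induced by stress, read 14.9 in B16 and 11.6 in B16-RIIL and was not detected in B16-RI and B16-RII. Myc, a transcription factor that drives ribosome production, read 123, 101, 80.5 and 173 in B16, B16-RI, B16-RII and B16-RIIL. Eif4ebp1 (2-fold below B16 in B16-RI), Pdcd4 (above in B16-RI) and Tsc2 (above in B16-RIIL) also passed 2-fold, all on dim probes, as did the elongation factor Eef1a2 (below in B16-RII). Over the growth signalling list the medians against B16 were -0.057, -0.035 and 0.198 in B16-RI, B16-RII and B16-RIIL, over 8 to 10 genes detected in both. For 4 genes of p53 surveillance they were 0.025, 0.061 and 0.135.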

How the data were processed

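RNA of 4 lines was measured with 1 array each. The authors deposited raw and normalized intensity per probe, and the normalized intensity equals the raw signal divided by 1 of 2 constants per array, for 2 probe sets, although their methods name quantile normalization. Per probe and array, the authors also gave 2 scores from the reader, a signal-to-noise ratio and a quality flag. The genome build behind the probes is not given in the sources used here. Left unused were 30 further columns (20 with per-sample values) of arrays that match no labelled sample, and 14 columns derived from the arrays used, among them the authors' ratios.

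Per array and probe set, normalized intensities were divided by the median ratio to B16 over probes detected on all 4 arrays, and log2 was taken with no pseudocount. A 2-fold call needed a difference of 1 log2 unit and detection on the brighter array. A bound set the brighter signal against the dim probe's own or the array's detection floor, whichever was higher. Genes were named by rule: those past 2-fold, the 5 highest and 5 lowest per line, genes whose probes differ by 0.5 or more, the stalk proteins, Rps6, Rpl5, Rpl11 and paralogs. Further members and Myc were named after their values were seen, and some genes that meet the rule are not reported here. The members, lists and comparisons were chosen with earlier results of these data known. Counting was tested on simulated data. Python 3.11.15, pandas 2.3.3, numpy 2.4.6 and matplotlib 3.10.9 were used.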

Additional observations from a re-analysis of the deposited data

How the results depend on the processing

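Of 145 values recomputed for 17 results, 80 stayed the same, 57 moved and 8 reversed. A change of sign counted as reversed, a count as the same within 1.5 times, and a median that kept its sign as the same when it moved by less than 0.1, a limit about as large as the differences themselves: in B16-RI the median was 0.023 centred on the brightest probes and 0.050 with quantile normalization. The median difference of the ribosomal protein probes from B16, 0.103, -0.047 and -0.089 in B16-RI, B16-RII and B16-RIIL, became 0.375, 0.367 and 0.230 with the deposited signal, 0.308, 0.382 and 0.267 with median scaling and 0.224, 0.045 and 0.032 with 75th percentile scaling of the raw signal. These scalings move all probes: in the same order of lines the median of all probes was 0.206, 0.396 and 0.214 with the deposited signal. It was 0.148, 0.369 and 0.241 with median scaling and 0.064, 0.031 and 0.005 with 75th percentile scaling. Quantile normalization gave 0.038 in B16-RIIL. From B16-RI, the median in B16-RII became -0.045 with the deposited signal and 0.063 with median scaling, and in B16-RIIL -0.085 with median scaling and -0.053 with quantile normalization. Median scaling also put the median of all probes at 0.239 in B16-RII minus B16-RI. With quantile normalization the median of all probes in B16-RIIL minus B16-RI was -0.001, and the cause of the smaller member difference was not tested.

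Counts of 2-fold probes above B16 in B16-RI, B16-RII and B16-RIIL (2, 3 and 3) and below (0, 1 and 1) became 20, 15 and 13 above and 2, 21 and 22 below with the loosest limit tried, 6, 9 and 8 above and 1, 5 and 8 below with 1.5-fold, and 0 in every line with 4-fold. The share of all probes was taken at the 2-fold limit only, so the counts at the other limits have no background to be read against. Above B16, the deposited signal gave 4, 9 and 6, median scaling gave 8 in B16-RII and 6 in B16-RIIL, and quantile normalization 6 in B16-RII. Below B16 in B16-RII the deposited signal gave 0, no detection filter 2 and a signal-to-noise ratio of at least 5 gave 0. Below B16 in B16-RIIL, 75th percentile scaling and quantile normalization each gave 2, no filter 4 and the stricter ratio 0. Detection on all 4 arrays left 1 in B16-RI and 0 elsewhere, and 1 probe per gene left 1 in B16-RII and 0 elsewhere. Bright probes alone, an alternative chosen after seeing the data, gave 0 in each line and direction.

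Among the 2901 brightest of the probes detected on all arrays, 0.758%, 0.965% and 1.07% were 2-fold above and 0.276%, 0.172% and 0.483% below B16 in B16-RI, B16-RII and B16-RIIL. Signal over background limits the dim probes. No paired analysis was possible because the labels give 1 sample per line with no replicate number, and the second arrays match no labelled sample.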
